A study of Mus musculus with 460 samples.

Results

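Collagens are the main structural proteins of the matrix around fibroblasts, and each collagen type is built from 1 or more chains, every chain from its own gene. The genes described here are all rows of the deposited table whose symbol reads Col, a number, the letter a and a number, which gave 44 of 48440 genes. They were followed over 460 single cells labelled as CAFs (cancer-associated fibroblasts), taken from lung adenocarcinoma of mice of 1 strain. Single-cell RNA-seq is the only assay used, and no normal-lung or tumour-free cells are among the samples. The labels name no animal, age, culture, sort or batch, so the 460 cells count as 1 sample, and no p-value or standard error is given. The cells were set in a pair of sets by their own counts: 44.1% of the 460 cells (exact interval 39.5 to 48.8) had more counts of Rgs5, a pericyte marker, than of Pdgfra, a fibroblast marker, and are the first set, and the other 55.9% are the second. No cell was tied. In 68 cells (14.8%) neither gene exceeded the other 2-fold, so the sets meet in a middle range. Neither gene is a collagen, but any gene that moves with Rgs5 or Pdgfra over the cells will differ between the sets.

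Collagen chains fold in threes into a triple helix inside the cell, after hydroxylation of prolines and lysines, and many are trimmed and crosslinked outside it. Fibrillar collagens (types I, II, III, V, XI, XXIV and XXVII) form or regulate the banded fibrils that give tissue its strength. Type IV forms the sheet of basement membranes, type VI forms beaded filaments beside them, FACIT collagens (fibril-associated, with interrupted helices) coat fibrils, and multiplexins (types XV and XVIII) sit where basement membranes meet fibrils. Fibroblasts are known for type I and III collagen, and pericytes, the cells wrapped around capillaries, share a basement membrane with the endothelium.

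The cells held 25029 to 240496 molecular barcode counts each, with a median of 88701 (76944 in the first set and 96654 in the second). Levels below are CPM, a gene's summed count scaled to 1000000 counts of all genes over the same cells, with exact Poisson 95% intervals, exact Clopper-Pearson 95% intervals for shares of cells and exact conditional intervals for folds. All of these cover counting error only. Without Rgs5, which defines the sets, the other 7 pericyte markers together stood at 5173 CPM in the first set and 1076 in the second, and each was at least 2-fold higher in the first (8.74% of all genes were). Without Pdgfra, the other 8 fibroblast markers stood at 5258 and 4860.1 CPM. Pdgfrb alone held 3662 and 2144.5 CPM of this and Dcn 229.7 and 1328, so Pdgfrb weighs heavily in the sum. Of the 8, Dcn, Lum and Dpt were at least 2-fold lower in the first set (8.5% of all genes were). Ratios above 1 were found for Pdgfrb (1.71), Tcf21 (1.67), Thy1 (1.15), Vim (1.09) and Fap (1.93, from 50 counts). Markers of other cells were present: summed epithelial markers stood at 1363 and 841 CPM, immune markers at 405.5 and 152.5, and endothelial markers at 92.9 and 74.3. The single-cell medians were closer, at 710.1 and 607 for epithelial, 75.5 and 69.3 for immune and 13.8 and 11.2 for endothelial markers. In 27.6% of the cells, which lie in runs of neighbouring columns of the table, the surfactant gene Sftpc was mostly absent. Both sets are split over these columns, with 64 and 63 cells there.

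Collagen transcripts made up 810168 of 42611260 counts, or 1.90%. The share ran from 0.210% in the lowest cell to 5.39% in the highest, with a median of 1.84%. A cell had counts of 14 to 27 of the 44 chains, with a median of 19. Both sets spent nearly the same share on collagen, 1.85% in cells with Rgs5 above Pdgfra and 1.94% in the rest, a ratio of 0.956. What differed was the makeup. In the first set fibrillar chains held 35.98% of collagen counts and type IV chains 26.98%, against 52.3% and 13.2% in the second.

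Over all cells the fibrillar class held 45.96% of collagen counts, type VI 21.2%, type IV 18.5%, FACIT chains 6.86% and multiplexins 6.68%. With each chain divided by its transcript length the shares were 47.8%, 21.3%, 17.2%, 4.67% and 8.13% in the same order, which leaves the fibrillar class first and type VI and type IV next. The remaining classes were small, with 0.552% of collagen counts from short-chain network collagens, 0.158% from transmembrane collagens and 0.0911% from type VII. Detection was steep. Of the 44 chains, 9 had a count in every cell, 14 had one in at least 90% of cells (4.88% of all genes reached that), and a further 5 in 50 to 90%. Another 9 were counted in 10 to 50% of cells, 14 in fewer, and 2 in none.

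**Figure D1:**
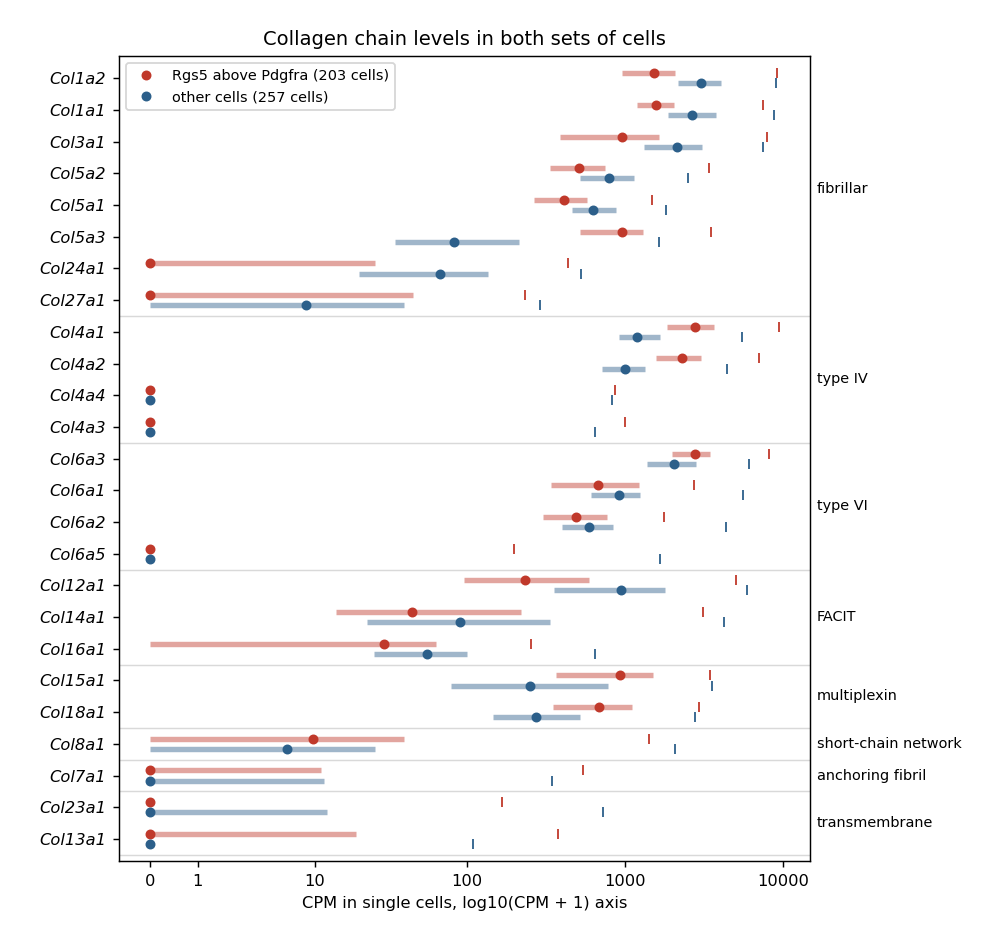
Single-cell CPM (log axis of CPM + 1) of the collagen chains with at least 10 CPM, by collagen class, in the cells with Rgs5 counts above Pdgfra counts (44.1% of 460) and in the other cells; points are medians, bars run between the quartiles and ticks mark the highest cell. The bars of both sets do not meet for Col1a2, Col4a1, Col4a2 and Col5a3, the last with medians of 955 and 82.7 CPM, and overlap for Col5a2, with medians of 511 and 796.

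Type I collagen, the main fibril protein of connective tissue, is made of chains encoded by Col1a1 and Col1a2. Col1a2 had a count in 460 of 460 cells (interval 99.2 to 100%) and stood at 2565 CPM (2550.2 to 2581). In cells with Rgs5 above Pdgfra it ran from 143.5 CPM through a median of 1533 to 9166, and in the rest from 374.9 through 3048 to 8997. The ranges overlap over nearly their whole length while the medians lie far apart. The summed levels were 1711 and 3130.1 CPM, a ratio of 0.547 (0.539 to 0.554). Col1a1 (2408 CPM) showed the same order, from 68.2 through 1569 to 7482 CPM in the first set and from 259.4 through 2683 to 8843 in the second, a ratio of 0.611 (0.602 to 0.619). Per kilobase of the longest principal transcript, Col1a2 stood at 479.7 CPM, Col1a1 at 406.1 and Col3a1 at 329.2, the 3 highest of the collagens. This order rests on the transcript chosen: over all annotated exons Col1a1 led with 366.9 CPM per kilobase and Col1a2 stood at 206.5, with 12426 bases in all its annotated exons against 5348 in that transcript.

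Col3a1, whose type III fibrils run with type I in stretchable tissue such as lung, stood at 1832 CPM. The lowest cell had 29.1 CPM and the highest 7948. Its levels ran through a median of 962 CPM in cells with Rgs5 above Pdgfra and 2126 in the rest, with summed levels of 1206 and 2245 and a ratio of 0.537 (0.529 to 0.546). Over the 12 settings tried the ratio of Col3a1 ranged from 0.438 (cells with a 2-fold margin between Rgs5 and Pdgfra) to 0.547.

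Type V collagen is a minor fibril component that limits fibril width, and its 3 chains did not move together. Col5a2 (765 CPM) was lower in cells with Rgs5 above Pdgfra, with 590.3 against 881 CPM and a ratio of 0.670 (0.654 to 0.686). Col5a1 (599 CPM) likewise had 445.96 against 701 CPM, a ratio of 0.637 (0.620 to 0.654). Col5a3, a chain known from fewer tissues than the other two, went the other way. Its single-cell levels ran from 0 through a median of 955 to 3530 CPM in the first set and from 0 through 82.7 to 1643 in the second. The upper quartile of the second set (215.3 CPM) lay below the lower quartile of the first (524 CPM), although both sets had cells at 0. By medians of single cells the ratio was 11.5. Summed, Col5a3 stood at 906 and 176.03 CPM, 5.14-fold higher (4.98 to 5.32) in cells with Rgs5 above Pdgfra. It was nonetheless counted in 98.03% and 96.1% of the cells, so the sets differed in its level and hardly in its detection.

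The other fibrillar chains were sparse. Col24a1, a fibrillar chain first known from bone and cornea, stood at 61.8 CPM and was lower in cells with Rgs5 above Pdgfra, at 23.4 against 87.2 CPM, a ratio of 0.268 (0.240 to 0.298). It was counted in 46.3% (39.3 to 53.4) of the first set and 84.8% (79.8 to 88.98) of the second, so here the detection differed too. Col27a1 (30.2 CPM) stood at 30.8 and 29.9 CPM, a ratio of 1.03 (0.921 to 1.15). Col11a1, a cartilage fibril chain, had counts in 45 cells (9.78%) and 9.32 CPM, with 2.77 and 13.6 CPM in the sets. Col11a2 had 25 counts in 18 cells. Col2a1, the main cartilage collagen, had 5 counts, all in 1 cell.

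Type IV collagen was carried by its ubiquitous pair. Col4a1 had a count in every cell and 1923 CPM, and ran from 200.5 through a median of 2801 to 9412 CPM in cells with Rgs5 above Pdgfra and from 173.3 through 1202 to 5500 in the rest. The lower quartile of the first set (1846 CPM) lay above the upper quartile of the second (1676 CPM), while the ranges overlapped. The ratio of summed levels was 1.92 (1.89 to 1.94), from 2701 and 1409 CPM. Col4a2 (1553 CPM) followed it with 2231 and 1106 CPM, a ratio of 2.02 (1.99 to 2.05), and medians of 2286 and 1008. The pair is the standard heterotrimer of most basement membranes.

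The other type IV chains were found in few cells. Col4a4 and Col4a3, chains of the mature basement membranes of kidney glomerulus and lung alveolus, stood at 20.5 and 15.2 CPM and had counts in 99 (21.5%) and 64 (13.9%) cells. The 46 cells with the highest levels held 90.6% of the CPM of Col4a4 and 96.5% of that of Col4a3. Cells with a Col4a3 count had a median of 1127 CPM of the summed epithelial markers, against 606 in cells without one, and for Col4a4 the medians were 1047 and 572. Their ratios between the sets, 1.40 for Col4a4 and 1.65 for Col4a3, turned to 0.720 and 0.470 without the highest cell of each. Both chains had few counts in the columns low in Sftpc. Col4a4 had 26.8 CPM and counts in 28.5% of the other cells, against 0.685 CPM and 3.15% there. Col4a3 had 19.97 CPM and 18.9% of cells, against 0.0979 CPM and 0.787%. The part of epithelial RNA or of the columns in this difference was not tested. Col4a5 (8.17 CPM, 54 cells) and Col4a6 (1.64 CPM, 20 cells) were rarer.

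**Figure D2:**
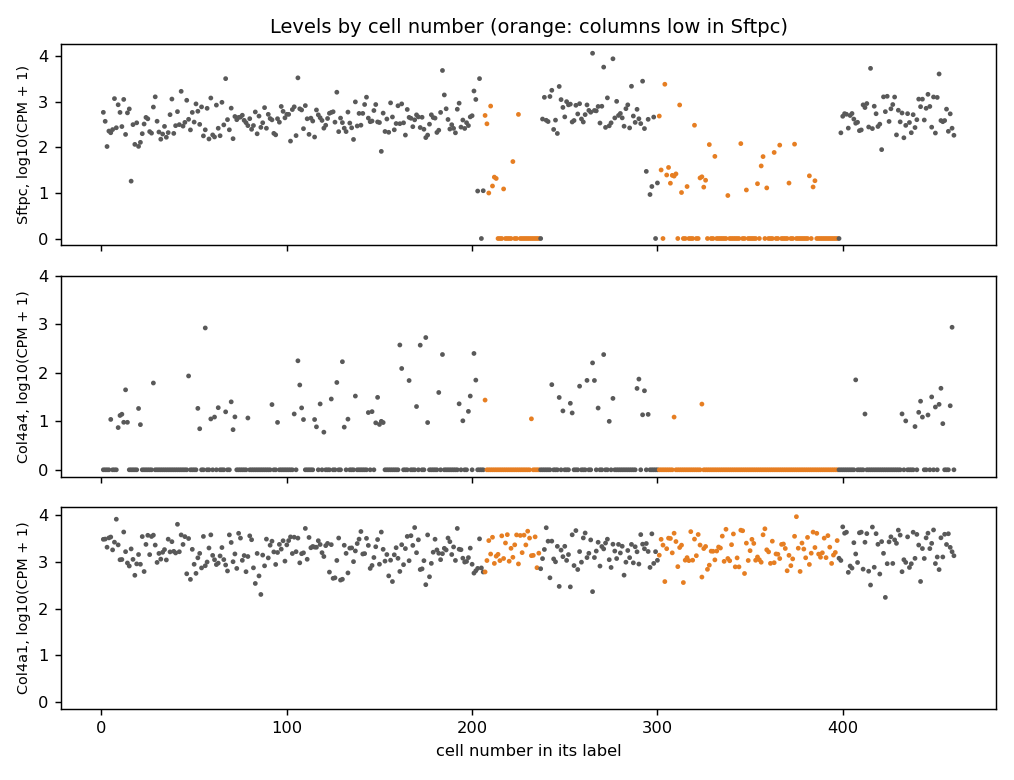
Single-cell levels, log10(CPM + 1), of Sftpc, Col4a4 and Col4a1 against the cell number in its label, one point per cell; orange points are the cells in runs of columns low in Sftpc. Col4a4 had a count in 4 of the orange cells and in 95 of the others, while Col4a1 was counted in every cell of both.

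Type VI collagen, a beaded filament of 3 different chains in most tissues, was abundant in both sets. Col6a3, its longest chain, stood at 2407 CPM and was slightly higher in cells with Rgs5 above Pdgfra, running from 74.96 through a median of 2775 to 8217 CPM there and from 312.9 through 2057 to 6105 in the rest. The ratio was 1.21 (1.19 to 1.22). Col6a1 (951 CPM) and Col6a2 (644 CPM) leaned the other way, with ratios of 0.797 (0.781 to 0.813) and 0.844 (0.824 to 0.865). Per kilobase the 3 chains were nearer each other, at 267.4, 231.9 and 162.96 CPM. The chains that can stand in for Col6a3 were rare and patchy. Col6a5 had 15.9 CPM from 66 cells, with 1678 CPM in the highest cell, and the top 46 cells held 97.6% of its CPM. Col6a6 (4.60 CPM) had counts in 33 cells, none of them among the columns low in Sftpc, and Col6a4 (3.99 CPM) in 28 cells.

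Among the FACIT chains, Col12a1 had the highest level, both in CPM (952) and per kilobase (82.7). It encodes type XII, which bridges fibrils and is known from tissues under load. Its levels ran from 0 through a median of 233.1 to 5035 CPM in cells with Rgs5 above Pdgfra and from 17.9 through 953 to 5913 in the rest. The summed levels were 536 and 1226 CPM, a ratio of 0.437 (0.427 to 0.448), or 0.244 by medians of single cells. Col14a1, for the related type XIV, stood at 278.7 CPM but was concentrated, with a median of 64.8 CPM, a highest cell of 4222 CPM and 56.3% of its CPM in the top 46 cells. Its ratio was 0.809 (0.779 to 0.840), but 1.30 in the cells without an endothelial count, 1.10 in the columns low in Sftpc and 0.496 by medians, so no direction holds throughout. Col16a1 (63.1 CPM) was counted in 72.4% of the first set and 88.3% of the second, with a ratio of 0.598 (0.549 to 0.651). Col20a1 (8.92 CPM) had counts in 24.1% of cells and Col22a1 (57 counts) in 5.65%. Type IX, the FACIT of cartilage, was nearly absent: Col9a2 and Col9a3 had 13 and 12 counts, and Col9a1 none. Col19a1 had no count either, and the limit of 3 counts is 0.0704 CPM, or a count in 0.652% of cells. The exact intervals of both chains reach 0.0866 CPM and 0.799% of cells.

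Both multiplexins were higher in cells with Rgs5 above Pdgfra. Col15a1, for type XV of the outer basement membrane, ran from 12.1 through a median of 939.5 to 3443 CPM there and from 0 through 250.4 to 3572 in the rest. The ratio was 1.95 (1.91 to 1.997), or 3.75 by medians of single cells. Col18a1, whose C-terminal fragment is endostatin, had medians of 683 and 274.6 CPM and a ratio of 1.87 (1.82 to 1.92). Both also had cells at high levels in the second set, whose highest Col15a1 cell exceeded that of the first.

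The remaining chains were patchy. Col8a1, a short-chain collagen of vessel walls, stood at 101.03 CPM and was counted in 52.6% of cells, yet 46 cells held 78.1% of its CPM. Its highest cell reached 2078 CPM. The ratio between sets was 0.785 (0.737 to 0.837), but 0.426 in the columns low in Sftpc and 1.53 by medians of single cells. Col7a1, which anchors epithelia to the matrix below, had 17.3 CPM in 31.5% of cells and a ratio of 1.13 (0.971 to 1.31). The transmembrane chains Col13a1 and Col23a1 differed in opposite directions. Col13a1 had 21.6 CPM in cells with Rgs5 above Pdgfra and 7.56 in the rest, 2.86-fold higher (2.40 to 3.42), and Col23a1 had 5.37 and 19.6 CPM, a ratio of 0.274 (0.217 to 0.344), or 0.161 without endothelial counts. Each was counted in 24.1% of cells. Under 10 CPM were 19 of the 44 chains, including those already named, Col10a1 (110 counts), Col17a1 (74), Col8a2 (57), Col25a1 (55), Col28a1 (5) and Col26a1 (3). For the 25 chains of at least 10 CPM, the top 46 cells held a median of 34.3% of a chain's CPM, against 39.1% for the 9832 genes at that level.

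**Figure D3:**
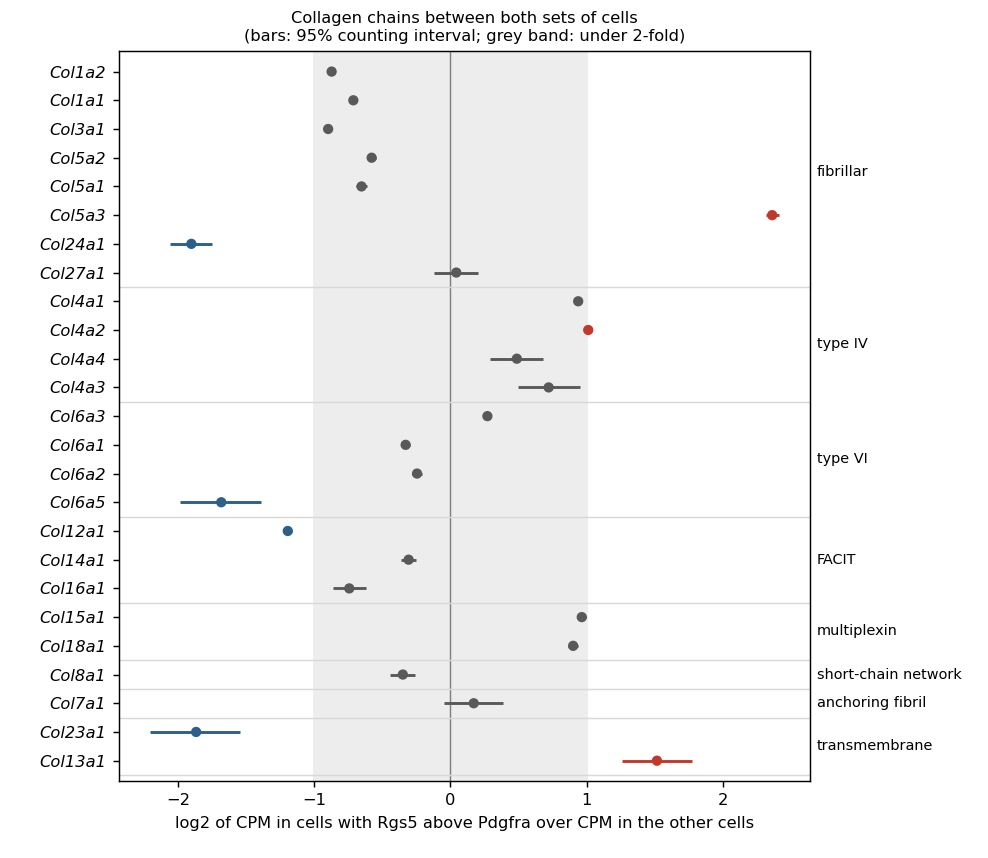
Ratio of CPM in the cells with Rgs5 above Pdgfra to that in the other cells (log2 axis) for the chains with at least 10 CPM, by class; bars are 95% counting intervals and the grey band marks ratios under 2-fold. Col5a3 stands at 2.36 and Col24a1 at -1.90, while the abundant type I, III and V chains other than Col5a3 lie between -0.90 and -0.58.

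Counted together, 36 chains had at least 1 CPM in one of the sets. Of these, 4 were at least 2-fold higher in cells with Rgs5 above Pdgfra (11.1%, where 8.74% of 17798 genes were), namely Col5a3, Col13a1, Col4a5 and Col4a2. A further 11 were at least 2-fold lower (30.6%, where 8.5% of all genes were), namely Col12a1, Col24a1, Col23a1, Col6a5, Col11a1, Col6a4, Col6a6, Col17a1, Col22a1, Col8a2 and Col25a1. Among the 27 chains of at least 10 CPM in a set the counts were 4 (5.11% of all such genes) and 5 (5.27%). At 1.5-fold, 9 of the 36 chains were higher (15.1% of all genes) and 17 lower (14.9%), and at 3-fold 1 was higher (5.2%) and 10 were lower (4.33%). Of the 11 lower chains, 7 were counted in fewer than 10% of cells. Col17a1, Col22a1, Col8a2 and Col25a1 reached 1 CPM in the second set only, and Col23a1, Col6a5 and Col11a1 reached 10 CPM there only, as Col13a1 and Col4a5 did in the first. Such chains pass the limit through the set where they are high, so the counts are no measure of a lean of the family. Over the 36 chains 13 were higher and 23 lower, beside 9429 and 8331 of 17760 genes with counts in both sets. The median log2 ratios were -0.46 and 0.03. The same limit chose these 36 chains, so these values are no measure of a lean either. The 2-fold line cuts between near neighbours: Col4a2 (2.02) is past it, while Col15a1 (1.95), Col4a1 (1.92), Col18a1 (1.87) and, downward, Col3a1 (0.537) and Col1a2 (0.547) are not. Col5a3 and Col24a1 kept their side of the line in all 12 settings. Col4a2 lost it with TMM scaling and in the columns low in Sftpc, and Col12a1 lost it in the same columns (0.596) and in the 41.96% of cells without an endothelial count (0.554). In the columns low in Sftpc, Col15a1 (2.72) and Col18a1 (2.47) passed it. With a 2-fold margin between Rgs5 and Pdgfra, Col15a1 (2.16), Col18a1 (2.10) and Col4a1 (2.13) passed it, and downward Col3a1 (0.438) and Col1a2 (0.469). Col4a1 also passed it with thinned counts (2.06), without the deepest cells (2.02) and by medians of single cells (2.33). Calls of the sparse chains leaned on few cells: without 12 cells high in posterior Hox genes the ratio of Col6a5 was 0.677, that of Col4a5, which lost its call in 7 of the 12 settings, ran from 1.14 with a 2-fold margin between Rgs5 and Pdgfra to 4.65 in the columns low in Sftpc, with thinned counts that of Col17a1 was 0.812, and without endothelial counts that of Col6a6 was 1.12. Whether the sets hold different cell types or unequal states of one was not tested.

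Cell-to-cell covariation was described by Spearman correlations of CPM, which share 1 library set, the depth of each cell and the total they are scaled to. Over all pairs of the 28 chains counted in at least 10% of cells the median was 0.0313, against 0.0151 over all such genes. Over the 91 pairs of the 14 chains in at least 90% of cells it was 0.180, against 0.0126, and 47 of the 91 pairs lay above the 95th percentile of all gene pairs (0.155). Partners of known heterotrimers were among the closest pairs. Col4a1 and Col4a2 correlated at 0.909 (0.912 in the first set, 0.768 in the second), and Col1a1 and Col1a2 at 0.857 (0.586 and 0.886). Col6a1 and Col6a2 followed with 0.757 (0.748 and 0.761). Partnership was no guarantee of it, as Col6a3 correlated at 0.0825 with Col6a1 and 0.107 with Col6a2, although the type VI filament holds all 3.

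Col6a3 instead went with chains of other types. It correlated at 0.535 with Col5a3, 0.508 with Col4a1, 0.499 with Col4a2, 0.442 with Col15a1 and 0.416 with Col18a1. Within each set these values lay between 0.347 and 0.488. Other pairs were closer over all cells than within a set. Col5a3 correlated at 0.627 with Col4a2 over all cells, but at 0.408 in the first set and 0.115 in the second. The lowest pairs were Col5a3 with Col1a2 (-0.418), Col3a1 with Col4a1 (-0.371), Col1a2 with Col4a1 (-0.366), Col5a3 with Col3a1 (-0.362) and Col5a3 with Col24a1 (-0.351). Col5a3 with Col1a2 gave -0.124 and -0.0188 within the sets. The median over fibrillar and type IV pairs was -0.207 over all cells and 0.0980 and 0.0923 within the sets. Single pairs could stay below 0 there, such as Col3a1 with Col4a1 at -0.143 in the second set and Col5a3 with Col3a1 at -0.164 in the first. Among fibrillar chains Col3a1 and Col1a2 reached 0.817 (0.719 and 0.732), Col1a1 and Col3a1 0.704, Col5a2 and Col1a2 0.701, Col1a1 and Col5a2 0.675, and Col5a1 and Col5a2 0.546. Col5a3 and Col5a1 gave -0.261 over all cells, but -0.0971 in the first set and 0.111 in the second.

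**Figure D4:**
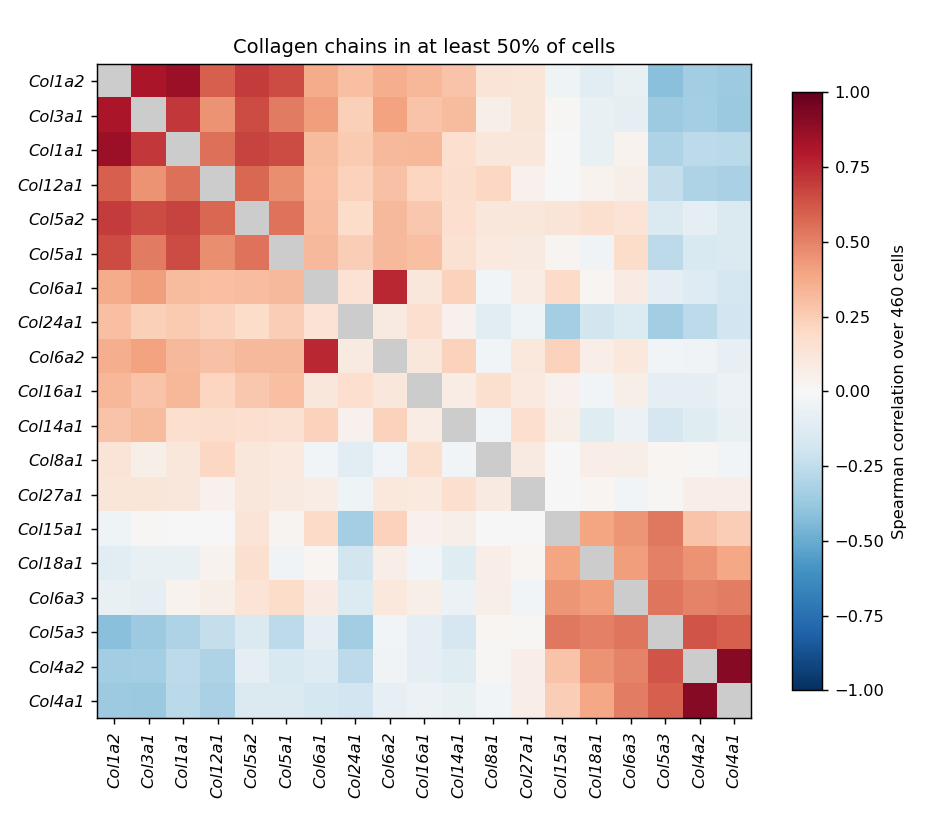
Spearman correlation of single-cell CPM between the collagen chains counted in at least 50% of the 460 cells, with the same chains on both axes and colour for the coefficient (the diagonal is grey). Blocks of high values join Col1a1, Col1a2, Col3a1 and Col5a2 and join Col4a1 with Col4a2, while Col6a3 is paler with Col6a1 (0.0825) than with Col5a3 (0.535).

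**Figure D5:**
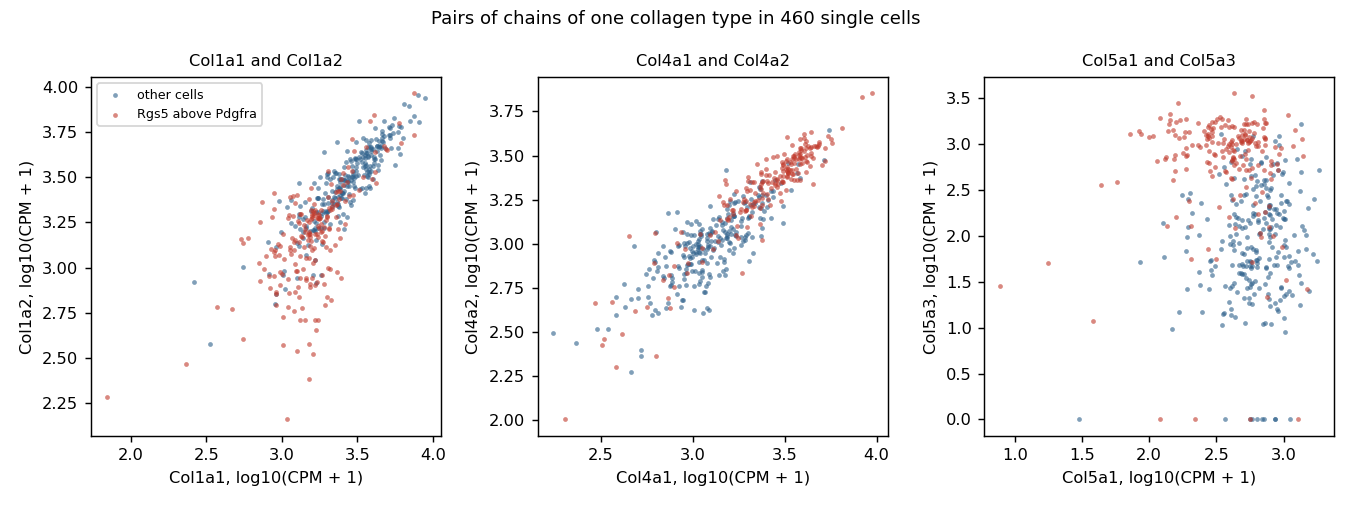
Single-cell levels, log10(CPM + 1), of Col1a1 with Col1a2, Col4a1 with Col4a2 and Col5a1 with Col5a3, one point per cell and one colour per set (red for cells with Rgs5 above Pdgfra, blue for the others). The points of Col4a1 and Col4a2 form one band across both sets (0.909). Col5a3 separates the sets at like levels of Col5a1 (-0.261 over all cells, -0.0971 in the red set and 0.111 in the blue).

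Several collagen genes lie side by side. Col4a1 (chr8:11198423-11312826, minus strand) and Col4a2 (chr8:11312805-11449287, plus strand) are transcribed head to head, and their annotated genes overlap by 22 bases. How reads there were counted depends on the use of strand, which is not stated. Col4a4 and Col4a3 are head to head on chromosome 1, 71 bases apart, and correlated at 0.315, with 31 cells holding both (31.3% of the Col4a4 cells and 48.4% of the Col4a3 cells). Col3a1 and Col5a2 are tail to tail on chromosome 1, 24614 bases apart, and correlated at 0.656. Col6a2 and Col6a1 follow each other on chromosome 10. Col1a1 and Col1a2, which correlated at 0.857 (0.586 and 0.886 within the sets), are on chromosomes 11 and 6. Any part of neighbourhood in the correlations was not tested.

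The promoter windows (250 bases before the start of transcription to 50 after it, RefSeq on GRCm38.p6, the assembly also known as mm10) show how close the type IV pair stands. Capitals mark the 78 bases that both windows share, chr8:11312777-11312854, each printed 5′ to 3′ on its own gene's strand, so that one run is the reverse complement of the other. The windows are chr8:11312777-11313076 (minus strand) and chr8:11312555-11312854 (plus strand).
Col4a1: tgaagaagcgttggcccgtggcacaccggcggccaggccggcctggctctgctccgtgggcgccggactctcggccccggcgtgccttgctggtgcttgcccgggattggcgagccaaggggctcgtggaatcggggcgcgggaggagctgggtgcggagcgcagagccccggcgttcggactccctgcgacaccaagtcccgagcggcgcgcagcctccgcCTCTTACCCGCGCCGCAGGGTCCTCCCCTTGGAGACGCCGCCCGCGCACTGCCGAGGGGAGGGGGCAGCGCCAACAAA
Col4a2: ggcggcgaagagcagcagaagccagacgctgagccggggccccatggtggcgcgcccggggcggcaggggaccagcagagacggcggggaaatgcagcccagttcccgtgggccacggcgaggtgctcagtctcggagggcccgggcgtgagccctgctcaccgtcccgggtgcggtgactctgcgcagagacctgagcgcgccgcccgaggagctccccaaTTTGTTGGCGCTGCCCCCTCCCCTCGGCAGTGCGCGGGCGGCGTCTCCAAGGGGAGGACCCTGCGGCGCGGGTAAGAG

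A further 3 windows are shown for chains that stood apart in the values above: Col1a2 and Col3a1, which correlated at 0.817 from different chromosomes, and Col5a3, the chain with the highest ratio between the sets. Capitals mark matches on either strand to the TATA box letters TATAAA, the CCAAT box letters CCAAT and the GC box letters GGGCGG. The windows are chr6:4505368-4505667 (plus), chr1:45311288-45311587 (plus) and chr9:20815018-20815317 (minus).
Col1a2: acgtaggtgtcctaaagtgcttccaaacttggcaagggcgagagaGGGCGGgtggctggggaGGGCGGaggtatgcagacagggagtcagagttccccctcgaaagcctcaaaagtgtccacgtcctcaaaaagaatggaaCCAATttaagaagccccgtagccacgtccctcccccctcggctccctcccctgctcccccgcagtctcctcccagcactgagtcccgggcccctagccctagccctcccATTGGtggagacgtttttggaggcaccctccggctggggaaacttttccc
Col3a1: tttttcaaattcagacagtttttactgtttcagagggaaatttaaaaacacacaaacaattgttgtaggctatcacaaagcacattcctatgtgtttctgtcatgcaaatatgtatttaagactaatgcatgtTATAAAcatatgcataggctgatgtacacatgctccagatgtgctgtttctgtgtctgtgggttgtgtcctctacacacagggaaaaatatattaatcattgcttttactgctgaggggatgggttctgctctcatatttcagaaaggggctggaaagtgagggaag
Col5a3: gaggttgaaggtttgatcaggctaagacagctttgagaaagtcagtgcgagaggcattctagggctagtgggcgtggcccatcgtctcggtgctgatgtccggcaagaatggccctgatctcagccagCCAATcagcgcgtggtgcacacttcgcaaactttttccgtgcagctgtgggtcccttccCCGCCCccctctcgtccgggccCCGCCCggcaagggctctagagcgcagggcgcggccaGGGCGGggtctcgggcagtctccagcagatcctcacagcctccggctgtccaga

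Within the printed windows, the closely correlated Col1a2 and Col3a1 shared no match to these letters. The Col1a2 window holds GGGCGG and CCAAT matches and is 61% G and C, and the Col3a1 window holds a TATAAA match and is 37.7% G and C. The Col1a2 window lies downstream of the first annotated base of its gene (4504814 on chromosome 6). Letters outside the windows were not searched, and the distance of a match from the start was not weighed. The contrast therefore holds for these windows only and is no comparison of whole promoters. The Col5a3 window holds CCAAT and GGGCGG matches. A window was matched for 35 of the 44 genes, in 38 windows. GGGCGG was found in 23 of these 38 (60.5%, against 35.7% of 32851 windows of all genes), CCAAT in 13 (34.2% against 37.4%) and TATAAA in 5 (13.2% against 13.6%). The matches are letters in a window and were not tied to any factor.

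Chain ratios were also taken within cells. Whether barcode counts grow with transcript length is not known here, so ratios per kilobase are no measure of stoichiometry. Per kilobase, a cell's Col1a1 was a median of 0.852 of its Col1a2 (0.902 in cells with Rgs5 above Pdgfra, 0.825 in the rest). Without division by length the median was 0.944. Per kilobase of all annotated exons the median was 1.79, so which chain leads depends on the length used. Col4a1 was a median of 1.20 of Col4a2 and kept to 1.19 and 1.22 in the sets. Col6a3 to Col6a1 moved more, with 1.67 in the first set and 0.992 in the second, or 3.66 and 2.18 without division by length. The clearest shift was within type V: Col5a3 was a median of 3.15 of Col5a1 in the first set and 0.207 in the second, and exceeded it in 84.7% and 11.4% of the cells with at least 10 counts of the pair. Across types, Col4a1 exceeded Col1a1 per kilobase in 78.8% of cells with Rgs5 above Pdgfra and in 13.2% of the rest.

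Of 7025 genes outside the family, those closest to the summed fibrillar chains over the cells were Bgn (0.688; biglycan, a fibril-binding proteoglycan), Fbn1 (0.660; fibrillin of microfibrils), Dcn (0.654; decorin), Igf1 (0.646) and Colec12 (0.640). Within the sets Bgn gave 0.590 and 0.597. Closest to the summed type IV chains were Gucy1a3 (0.778) and Gucy1b3 (0.740), the subunits of the nitric oxide receptor guanylate cyclase, with Mcam (0.757), F2r (0.753; the thrombin receptor) and Pcdh18 (0.736). Gucy1a3 gave 0.683 and 0.479 within the sets. Rgs5 itself correlated at 0.587 with type IV, with 0.423 in the first set and 0.0122 in the second. Type VI had no close companion, its highest being Loxl2 at 0.358, a crosslinking enzyme. Type XV was nearest to Notch3 (0.472), with 0.142 and 0.357 within the sets. These are the highest of many values and are given as a description.

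The genes that make and handle collagen were also set side by side. Of 21 enzymes and chaperones of collagen hydroxylation and folding with at least 1 CPM, 1 was at least 2-fold higher and 2 lower in cells with Rgs5 above Pdgfra, where 8.74% of all genes were higher and 8.5% lower. Serpinh1, the collagen chaperone, stood at 334.9 and 382.2 CPM (ratio 0.876), and P4ha3, a prolyl hydroxylase subunit, had a ratio of 0.221. Of 14 procollagen-cleaving and crosslinking genes, 1 was higher and 4 were lower. Lox, the founding lysyl oxidase, had a ratio of 0.237 and Loxl1 0.381, while Tgm2, a transglutaminase, had 2.52. Of 11 collagen receptors 3 were higher (Adgrg6, Adgrg1 and Lair1) and none was lower. Lair1 had 40 counts and reached 1 CPM in the first set only (2.01 against 0.234). The receptors of highest level stayed under 2-fold, with ratios of 1.09 for Itgb1, 1.41 for Itga1 and 0.858 for Ddr2, and Mrc2 had 0.506. Of 11 collagen-degrading enzymes none was higher and 5 were lower, among them Mmp2, a gelatinase, at 0.393.

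Non-collagen matrix proteins that bind the chains went in both directions. Of 17 fibril partners 3 were at least 2-fold higher and 7 lower, beside 8.74% and 8.5% of all genes. Dcn had a ratio of 0.173 and Lum (lumican) 0.0705, while Postn (periostin) had 2.90. Dcn and Lum are also in the list of fibroblast markers. Of 15 basement membrane partners 4 were higher and 2 lower: Agrn (agrin) had a ratio of 2.26 and Nid2 (nidogen) 2.17, while Lama1 had 0.142 and Lama5 0.423, both laminin chains. The genes of these lists with a printed ratio past 2-fold were picked after their values were seen.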

How the data were processed

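The authors deposited 1 table of molecular barcode counts, whole numbers for 48440 genes in 460 cells. Per the submitters' processing notes, STAR and HTSeq were used with mm10. Versions, the use of strand and the step from reads to barcode counts are not given in the sources used here. Each cell is 1 GEO sample, its column was matched by its label, 0 columns had no sample and 0 columns were identical. All cells were kept, doublets were kept and no doublet caller was run.

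Collagens, gene lists and markers were chosen with earlier results of these data known. Folds are ratios of CPM of summed counts, called at 2-fold with at least 1 CPM in a set. Chains of at least 10 CPM are described in full, the rest by counts, with those under that level that stood out named after their values were seen; of each list, named genes past 2-fold were chosen likewise. Of 15 lists, smooth muscle markers stood at 1287 and 1570.1 CPM in cells with Rgs5 above Pdgfra and in the rest, mesothelial at 102 and 42.8, chondrocyte at 11.4 and 32.9 and Schwann cell markers at 11.6 and 3.90. Lengths are those of the longest APPRIS principal transcript of GENCODE vM21, which matched 44 of 44 chains. Columns were called low in Sftpc where most of the 20 nearest had under 30 CPM of it. Alternatives changed the cells, scaling, thinning (56586 counts per cell, 46 shallower cells left out), fold and limits. TMM scaling came from edgeR 4.0.16 (R 4.3.3) and all else from scipy 1.17.1, pandas 2.3.3 and numpy 2.4.6 under Python 3.11.15. The steps were tested on simulated data. The strain's genotype is not reported here.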

Additional observations from a re-analysis of the deposited data

How the results depend on the processing

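No paired analysis was possible because the labels give 1 group. The collagen share of counts (1.90%) was 1.92% with thinned counts and also without the 5% of cells with the most counts, 1.91% in the columns with Sftpc and 1.89% in those low in it. The ratio of summed collagen between the sets (0.956) was 0.966 with thinning, 0.982 without the deepest cells, 0.940 in columns with Sftpc, 0.962 without the 12 cells with posterior Hox genes, 0.961 from means and 0.942 from medians of single cells, 0.939 with a 2-fold margin between Rgs5 and Pdgfra and 0.9295 with TMM scaling. It passed 1 in the columns low in Sftpc (1.007) and in the 41.96% of cells without an endothelial count (1.002), the latter chosen after seeing the data, so neither direction of this ratio holds throughout; the cause was not tested. The 4 chains at least 2-fold higher became 9 at 1.5-fold, 1 at 3-fold and 7 without endothelial counts, and the 11 lower became 17 at 1.5-fold, 5 with medians and 5 with at least 10 CPM. The median correlation (0.0313) was 0.0351 thinned, 0.0353 without the Hox cells, 0.0357 as Pearson's, 0.101 for chains in at least 50% of cells, and 0.0382 and 0.0613 within the sets. Each chain's highest cell was also left out, after seeing the data, which moved neither count by over 1.5 times. The chains called did change: Col4a5 lost its higher call (1.83), Col4a6 gained one (2.11) and Col4a3 became lower (0.470). With 1 sample, the spread between animals is unknown. Chains of few counts, such as Col2a1 and Col28a1 with 5 each, allow no comparison at this depth.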

Other observations

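In 12 of the 460 cells, genes of Hox groups 9 to 13, which mark posterior body positions, summed to at least 300 CPM. The collagens of these cells were set out after their values were seen. Col14a1, for type XIV on fibril surfaces, stood at 1586 CPM there and at 240.3 CPM in the other cells. Col6a5, an alternative type VI chain, stood at 256.5 and 8.87 CPM, and Col27a1 at 155.4 and 26.6 CPM. Col6a1 had 1787 and 926 CPM. Others were lower, with 1018 against 2448 CPM for Col6a3, 89.6 against 733 CPM for Col15a1 and 97.8 against 477 CPM for Col5a3. Col1a2 stood at 2587 and 2565 CPM, so the main fibrillar chain hardly differed. With 12 cells of unknown origin these values have no replicate check.

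Cells shared by rare chains of one type were counted. Col4a6 and Col4a5 counts met in 11 cells, 55% of the Col4a6 cells and 20.4% of the Col4a5 cells, where 11.7% and 4.35% of all cells had Col4a5 and Col4a6. Col6a5 and Col6a6 met in 13 cells, 39.4% of the Col6a6 cells and 19.7% of the Col6a5 cells, where 14.3% and 7.17% of all cells had them. Col6a4 and Col6a5 met in 8 cells, 28.6% of the Col6a4 cells. Col6a4 (28 cells) and Col6a6 (33) met in 0 cells, as did Col9a2 (5) and Col9a3 (7). These chains had counts in 6.09%, 7.17%, 1.09% and 1.52% of all cells. At such shares few or no shared cells can occur without any link, so the zeros show no avoidance. Of the Col6a4 cells, 12 also lay in the columns low in Sftpc, where Col6a6 had no count. Col8a1 was counted in 38.1% of the 21 Col8a2 cells, below its 52.6% of all cells.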
